A study of Mus musculus with 14 samples.

Results

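The cytokines with which dendritic cells (DCs) direct T cells were examined in mouse lymph-node DCs sorted by whether a CD4+ T cell had labelled them through CD40. The set holds 10 genes, taken by symbol from the 23420 symbols of the count table, and all 10 were found there. They are the IL-12 family chains Il12a, Il12b, Il23a, Il27 and Ebi3, the IL-15 gene Il15 with its receptor chain Il15ra, and Il6, Il10 and Tgfb1. In short, biotin-positive DCs had almost no Il12a transcript and less Il15ra than biotin-negative DCs. Their Il15 level did not differ beyond the spread between libraries, and their Ebi3 level was above that of DCs without Cd40. None of these calls of Il12a, Il15ra and Ebi3 held in every alternative.

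Cytokines of the IL-12 family are heterodimers that share chains. The p35 chain (Il12a) with p40 (Il12b) makes IL-12, which drives T helper 1 differentiation, and p19 (Il23a) with the same p40 makes IL-23, which sustains T helper 17 cells. The p28 chain (Il27) with EBI3 makes IL-27, and p35 with EBI3 has been described as IL-35. IL-15 is made and carried to the cell surface on the IL-15 receptor alpha chain, and the complex is presented to neighbouring T cells and NK cells that carry the beta and common gamma chains. IL-6, IL-10 and TGF-beta act on T cells as a promoter of T helper 17 and follicular helper fates, a suppressor of inflammation, and an inducer of regulatory T cells. In DCs, ligation of CD40 by T cells is a known stimulus for IL-12.

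The DCs came from popliteal lymph nodes of C57BL/6 mice, and their polyadenylated RNA was read by Smart-seq2 from 150 sorted cells per library. In the LIPSTIC method, sortase A on a T cell passes a biotinylated peptide to a pentaglycine tag on the touched cell. For 12 libraries, recipients of the Cd40G5/G5 genotype (tagged CD40, listed as G5-Cd40+/+ for the sorted cells) received 500000 DCs of the same genotype per footpad, pulsed with the ovalbumin peptide OVA323-339, and 18 hours later 300000 OT-II CD4+ T cells of the CD40lgSrtA/Y CD4-Cre genotype, in which Cre is driven by the T cell promoter of Cd4. Biotin-LPETG, the substrate, was given at 300 nmol per footpad from 46 hours after the T cells, and nodes were taken at 48 hours. Endogenous DCs, high in MHC class II, CD11c+ and CD11b+ but XCR1-, were sorted from these nodes, 6 libraries of biotin-positive and 6 of biotin-negative cells. The sorted population is listed as Cd11c-int. For the remaining 2 libraries, Cd40-/- mice were treated in the same way but were given WT DCs and WT OT-II cells, and their DCs were sorted without a biotin gate. Genotype, transferred cells and gate therefore differ together in that group and cannot be told apart. The ages of the mice are not given, and the labels do not say whether each library of a group is a different mouse. A p-value here therefore speaks of the spread over these libraries, which may be technical.

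Total counts ran from 14500000 to 33300000 per library. Levels are given in CPM, the library-scaled count unit, with TMM scaling. The transcript of Cd40 ranged over 852 to 1310 CPM in the biotin-positive group and 386 to 598 CPM in the biotin-negative group, and was lowest, at 53.3 and 74.2 CPM, in the libraries labelled Cd40-/-. Over all genes tested, 4.05% were called lower and 3.70% higher in biotin-positive than in biotin-negative libraries (edgeR, adjusted p under 0.05). Of 12 DC identity genes, 7 were called lower and 1 higher (Fscn1). Those that fell include the genes of the sort markers: H2-Aa, H2-Ab1 and H2-Eb1 of MHC class II (H2-Aa median 343 against 1880 CPM), Itgax of CD11c (55.6 against 126 CPM) and Itgam of CD11b (0.942 against 17.9 CPM), beside Cd74 and Sirpa. Flt3, Zbtb46 and Ccr7 had counts in all 14 libraries. Of 5 genes of XCR1+ DCs, Clec9a was at 0 in 13 of 14 libraries, while Xcr1, Cadm1 and Itgae had counts in all 14. In biotin-positive, biotin-negative and Cd40-null libraries the median of Xcr1 was 2.09, 3.15 and 2.15 CPM. That of Cadm1 was 11.9, 13.9 and 5.7 CPM, that of Itgae 8.96, 2.2 and 0.669 CPM, and that of Tlr3 0.815, 0 and 1.01 CPM. Of the 4 tested, 0 were called between the biotin groups. Biotin-positive libraries had counts for 13090 to 13455 genes and biotin-negative libraries for 14225 to 15742. These ranges do not overlap, so gene number and biotin group can hardly be told apart in a model that holds both.

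Levels between genes were compared per kilobase of annotated exon. By the median over 14 libraries the order was Il15 (70.6 CPM per kb), Il15ra (53.6), Ebi3 (42.0), Il12b (6.88), Il27 (1.2), Il12a (1.03), Il6 (0.835) and Tgfb1 (0.0387), with Il23a and Il10 at a median of 0. Of the neighbours with counts in most libraries, each pair overlapped in range except Il6 and Tgfb1. Il15 lay above Il15ra in 12 of 14 libraries, Ebi3 above Il12b in 13 and Il12b above Il27 in 12. In places the order differed by group. Ebi3 exceeded Il15ra in 5 of 6 biotin-positive libraries (medians 67.0 and 43.4 CPM per kb) and in 0 of the other 8. Il27 exceeded Il12a in 6 of 6 biotin-positive and 1 of 6 biotin-negative libraries and in 0 of 2 null libraries, and Il12a exceeded Il6 in 0 of 6, 3 of 6 and 2 of 2. Tgfb1 was below Il6 in all 14 libraries. By the medians over 14 libraries the IL-15 pair and the beta chain Ebi3 thus formed an upper tier. The IL-12 and IL-27 alpha chains formed a tier more than 10 times lower by these medians, but not in every library. Ebi3 exceeded Il12a 7.4 to 51.0 times in biotin-negative libraries and 12.1 and 4.6 times in the null libraries. The pooled median of Il12a includes 5 biotin-positive libraries at 0.

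**Figure D1:**
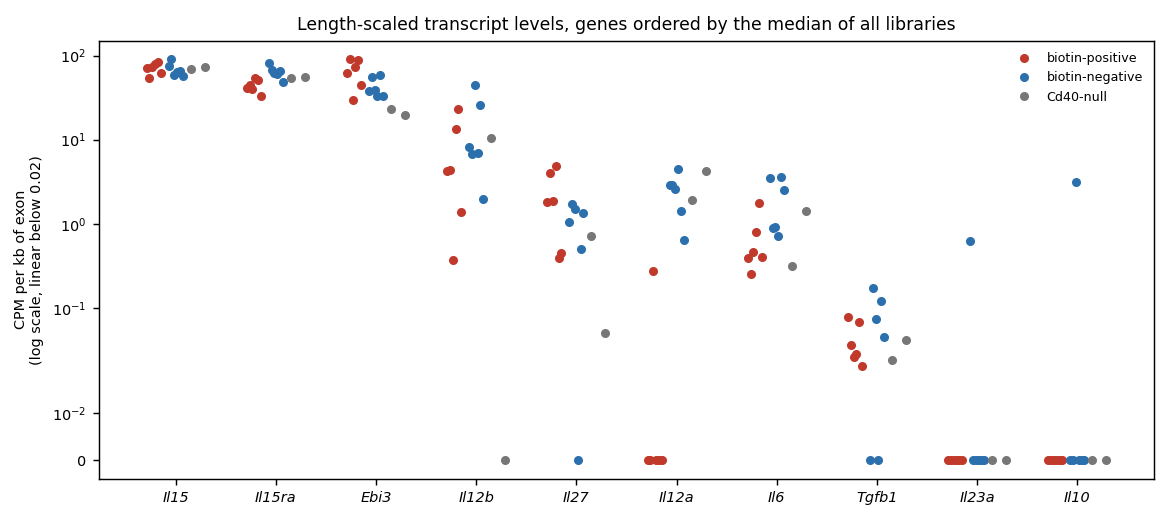
Transcript level of each of the 10 genes in every library, as CPM per kb of exon on a log scale that turns linear below 0.02, with genes ordered by their median. Each point is 1 library, in red for biotin-positive, blue for biotin-negative and grey for Cd40-null DCs; Il15, Il15ra and Ebi3 lie together at the top, and 5 of 6 biotin-positive libraries lie at 0 for Il12a.

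The edgeR test across 14217 genes covered 8 of the 10. Il23a and Il10 had counts in 1 library each and did not pass the filter on low counts. Between biotin-positive and biotin-negative libraries 0 members were called higher and 2 lower, Il12a and Il15ra, at an adjusted p under 0.05, and 6 were not called. Over all genes tested 7.75% were called in this comparison, 3.70% higher and 4.05% lower. By non-overlap of the groups 0 members lay higher and 1 lower, Il12a, where 2.60% and 2.41% of all genes did. The median log2 fold change of the 8 was -0.61, beside -0.03 over all genes tested. Between biotin-positive and Cd40-null libraries 1 member was higher (Ebi3) and 1 lower (Il12a), against 2.27% of all genes called, 1.22% higher and 1.05% lower. Without overlap, 1 member lay above the null libraries (7.81% of all genes) and 2 below, Il12a and Il15ra (8.07%). Between biotin-negative and Cd40-null libraries edgeR called 0 of 8 (1 at an unadjusted p under 0.05; DESeq2 and limma voom also called 0), where 0.317% of all genes were called, 0.274% higher and 0.0422% lower. Here 1 member, Ebi3, lay without overlap above the null libraries (6.23% of all genes) and 0 below (4.47%). The medians of the 8 were 0.20 and 1.04 in these comparisons, and 0.04 and 0.06 over all genes. The biotin-positive libraries enter the first 2 comparisons and the Cd40-null libraries the last 2, so the comparisons are not independent of each other.

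**Figure D2:**
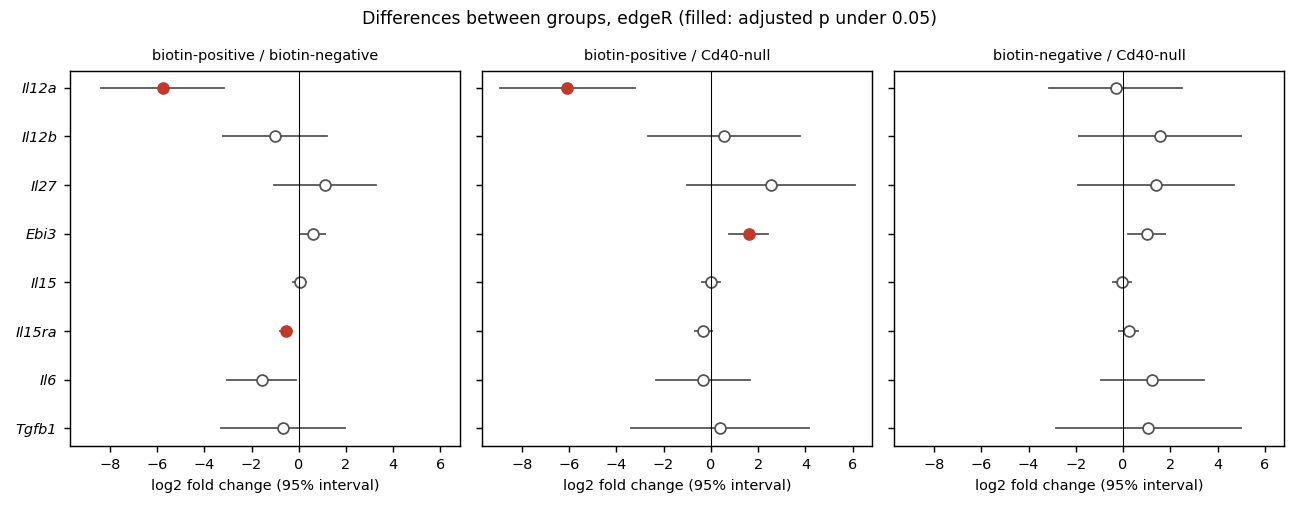
Log2 fold change of the 8 tested genes (points) with its 95% interval (lines) in the 3 comparisons, each panel naming the first group over the second. Filled points passed an adjusted p under 0.05 in edgeR: Il12a and Il15ra in the first panel, Il12a and Ebi3 in the second, none in the third.

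The 3 genes that passed the test in some comparison have RefSeq promoter windows in the build GRCm38.p6, which run from 250 bases before to 50 bases after a transcript start. They are shown because the counts of these genes differed between groups. Of the 10 genes, 6 had a window. Capitals mark matches, on either strand, to letters searched in every window: TGANTCA for AP-1, GAAA then any 2 bases then GAAA for an interferon-response element, and GGG then any 5 bases then CC as an NF-kB-like pattern. Among 32851 windows of 300 bases 7.81%, 3.44% and 50.8% hold these, so the NF-kB-like pattern is common by its loose spelling. Il12a has windows at chr3:68690394-68690693 and chr3:68691174-68691473, Il15ra at chr2:11705043-11705342 and chr2:11705462-11705761, and Ebi3 at chr17:55952373-55952672, all on the plus strand. The 5 windows read as follows.
Il12a, upstream start: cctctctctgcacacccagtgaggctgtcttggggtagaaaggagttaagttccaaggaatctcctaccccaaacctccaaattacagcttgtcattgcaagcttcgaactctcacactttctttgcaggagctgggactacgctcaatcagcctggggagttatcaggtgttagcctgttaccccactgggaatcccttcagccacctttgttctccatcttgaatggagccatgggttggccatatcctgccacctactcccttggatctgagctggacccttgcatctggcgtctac
Il12a, downstream start: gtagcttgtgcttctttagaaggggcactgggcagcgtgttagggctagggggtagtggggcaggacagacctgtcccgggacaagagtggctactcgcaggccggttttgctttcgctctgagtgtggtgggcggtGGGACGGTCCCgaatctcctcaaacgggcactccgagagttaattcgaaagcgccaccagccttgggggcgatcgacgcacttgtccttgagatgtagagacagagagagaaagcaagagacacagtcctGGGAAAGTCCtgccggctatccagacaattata
Il15ra, upstream start: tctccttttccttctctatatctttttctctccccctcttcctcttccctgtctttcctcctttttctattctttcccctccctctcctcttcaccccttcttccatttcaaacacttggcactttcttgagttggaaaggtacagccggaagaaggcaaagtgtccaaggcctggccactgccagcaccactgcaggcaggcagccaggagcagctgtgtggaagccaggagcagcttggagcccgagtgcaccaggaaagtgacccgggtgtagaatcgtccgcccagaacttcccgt
Il15ra, downstream start: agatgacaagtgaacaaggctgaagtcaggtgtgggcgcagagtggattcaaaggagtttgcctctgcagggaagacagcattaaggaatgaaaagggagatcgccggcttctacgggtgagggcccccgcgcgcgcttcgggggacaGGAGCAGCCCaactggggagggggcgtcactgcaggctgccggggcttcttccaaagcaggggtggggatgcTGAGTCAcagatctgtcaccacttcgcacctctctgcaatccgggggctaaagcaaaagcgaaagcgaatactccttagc
Ebi3: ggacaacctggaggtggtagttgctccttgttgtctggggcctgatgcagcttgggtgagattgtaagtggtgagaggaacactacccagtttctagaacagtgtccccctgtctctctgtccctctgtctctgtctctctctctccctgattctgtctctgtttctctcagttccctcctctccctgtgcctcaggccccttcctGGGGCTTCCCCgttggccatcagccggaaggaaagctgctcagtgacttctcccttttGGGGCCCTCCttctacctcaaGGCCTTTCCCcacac
Both upstream windows hold none of the 3 patterns. The downstream window of Il12a holds NF-kB-like matches at 2 places, the first read on both strands 1 base apart, that of Il15ra holds 1 NF-kB-like and 1 AP-1 match, and the Ebi3 window holds overlapping NF-kB-like matches before its start and 2 after it. No window here holds the interferon-response letters. A match is a stretch of letters only, and the counts do not tell which start was used.

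Il12a (chromosome 3, 68690644 to 68698547, plus strand of GRCm38), which encodes the p35 chain that only IL-12 and IL-35 contain, showed the widest difference. It was at 0 in 5 of 6 biotin-positive libraries and at 0.460 CPM (7 counts) in replicate 3. In biotin-negative replicates 1 to 6 it was at 4.86, 4.92, 4.36, 7.56, 2.40 and 1.09 CPM, and in the Cd40-null libraries at 3.26 and 7.18 CPM. Every biotin-positive library therefore lay below every other library, and the other groups overlapped. The group means were 0.0767 ± 0.188 CPM in biotin-positive (SD, n = 6), 4.20 ± 2.24 in biotin-negative (SD, n = 6) and 5.22 ± 2.77 in Cd40-null libraries (SD, n = 2). The mean was 54.7 times higher in biotin-negative libraries (edgeR log2 -5.76, SE 1.23, adjusted p = 0.00688) and 68.0 times higher in Cd40-null libraries (log2 -6.08, SE 1.36, adjusted p = 0.0248) than in biotin-positive ones. These sizes are loose, since they rest on 7 counts in 1 biotin-positive library. Il12a passed the count filter through the groups in which it was present. Between biotin-negative and Cd40-null libraries it was not called (log2 -0.31, 95% interval -3.13 to 2.51). In bulk libraries fewer cells with the transcript and less of it per cell cannot be told apart.

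Against the Cd40-null group the Il12a call was lost without either null library (adjusted p = 0.0748 without replicate 1 and 0.157 without replicate 2). Some marker genes of other cells moved with the same grouping. Of the markers tested, 0 of 11 for T cells, 0 of 6 for B cells and 0 of 4 for XCR1+ DCs were called between the biotin groups. In these 3 lists 2, 0 and 1 markers had an unadjusted p under 0.05 in edgeR. Of 16 monocyte and macrophage markers 15 were found in the table. Their summed level was 90.2 to 242 CPM in biotin-positive, 229 to 1260 in biotin-negative and 266 and 459 in Cd40-null libraries. No marker was at 0 throughout a biotin-sorted group, but Fcgr1, Mertk and Ms4a7 had counts in only 1, 2 and 2 biotin-positive libraries. Of the 15, 8 were called lower in biotin-positive than in biotin-negative libraries, where 4.05% of all genes were. Csf1r, with the highest median of the list in biotin-positive libraries, was not called (median 91.3, 119 and 86.0 CPM in the same order). Among 9 NK cell markers, 2 carried the shift: Klrk1 (median 36.5, 139 and 119 CPM in the same order) and Klrd1 (5.14, 36.0 and 29.7 CPM), which with the rest summed to 39.0 to 72.7, 152 to 241, and 134 and 164 CPM. Ncr1 and Gzma were at 0 in biotin-positive, Prf1 in biotin-negative, and Ncr1, Klrb1c, Gzma, Gzmb and Prf1 in Cd40-null libraries. Among 6 plasmacytoid DC markers, which summed to 81.9 to 198, 230 to 532, and 324 and 380 CPM, 1 was called, Spib (median 82.1 against 303 CPM in the biotin groups), while Bst2 (36.1 against 30.6 CPM) and Tcf4 (43.8 against 52.2 CPM) were not. That of 3 Langerhans cell markers went the other way, at 215 to 293, 30.6 to 105, and 91.0 and 101 CPM. The part of these cells in the Il12a difference was not tested. When the gene number per library was added to the model, which left 11 calls among all genes, Il12a was at log2 -6.95 and not called (adjusted p = 0.258). When the level of T cell markers was added, it was at log2 -4.97 (adjusted p = 0.0625).

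Il12b (chromosome 11, 44400063 to 44414033), the p40 chain shared by IL-12 and IL-23, was present in 13 of 14 libraries and differed far more within the groups than between them. Its lowest, median and highest level was 0.723, 8.44 and 45.8 CPM in biotin-positive libraries and 3.84, 15.0 and 87.4 CPM in biotin-negative libraries. The Cd40-null libraries held 20.8 CPM and 0, where 3 counts would be 0.155 CPM. The groups overlapped throughout. The means of 15.4 ± 17.4 and 30.9 ± 32.0 CPM (SD, n = 6 each) did not differ beyond that spread (log2 -0.998, SE 1.03, adjusted p = 0.677), and the interval of the difference, -3.21 to 1.21, leaves room for a change either way. So the near absence of Il12a in biotin-positive DCs was not matched by a called difference in its partner. Per kilobase, Il12b exceeded Il12a in all 6 biotin-positive and all 6 biotin-negative libraries, 1.56 to 18.2 times in the latter, and in 1 of 2 Cd40-null libraries.

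Il23a (chromosome 10, 128296139 to 128298752), the p19 chain of IL-23, had 39 counts in biotin-negative replicate 1 and 0 counts in the other 13 libraries. Over the biotin-positive group 0 counts allow up to 0.0261 CPM, from 3 counts over the summed libraries, and over the Cd40-null group 0.0678 CPM. With no p19 transcript detected in 13 libraries, p40 was present in nearly all of them.

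Ebi3 (chromosome 17, 55952640 to 55957022), the beta chain of IL-27, was the most abundant IL-12 family transcript. It was at 33.8, 77.3 and 104 CPM (lowest, median, highest) in biotin-positive libraries, 37.7, 44.0 and 67.9 CPM in biotin-negative ones, and 26.8 and 22.4 CPM in Cd40-null libraries. Both null libraries lay below all 12 biotin-sorted libraries, while the biotin groups overlapped. Biotin-positive libraries, at 74.4 ± 27.8 CPM (SD, n = 6), were 3.03-fold above Cd40-null ones, at 24.6 ± 3.08 CPM (SD, n = 2; log2 1.60, SE 0.38, adjusted p = 0.0378). Biotin-negative libraries, at 49.3 ± 13.3 CPM (SD, n = 6), were 2.00-fold above them but were not called (log2 1.00, SE 0.37, adjusted p = 0.411), and the biotin groups differed by log2 0.59 (SE 0.25, adjusted p = 0.167). The level in biotin-positive replicate 3 was the lowest of its group, and without it the difference between the biotin groups was called (log2 0.74, adjusted p = 0.0475). The call against the null group was lost with limma voom (adjusted p = 0.0886), with only the 2 groups compared (0.0786) and with T cell marker level in the model (0.0679). It had an adjusted p between 0.0515 and 0.0648 without biotin-positive replicate 1, 2, 4 or 5, and of 0.246 and 0.289 without null replicate 1 or 2. An antisense gene that overlaps Ebi3, Gm16712, is not listed in the count table, and Smart-seq2 does not mark strand, so reads of both would be counted together.

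Il27 (chromosome 7, 126589010 to 126594941), the p28 chain that pairs with EBI3, was low. It ran from 0.402 over a median of 1.89 to 4.96 CPM in biotin-positive libraries and from 0 over 1.22 to 1.75 CPM in biotin-negative libraries, and stood at 0.724 and 0.0516 CPM in the null libraries. In biotin-positive libraries replicates 2 and 4 were the highest, and the ranges of all groups overlapped. No difference was called (log2 1.12, SE 1.02, adjusted p = 0.618 between the biotin groups; log2 2.53, SE 1.68, adjusted p = 0.550 against Cd40-null). Per kilobase Ebi3 exceeded Il27 in every library, by 14.9 to 225 times in biotin-positive libraries. Il27 overlaps Apobr on the opposite strand, which had a mean of 26.0 CPM beside 1.48 CPM for Il27, and without strand their reads cannot be told apart where they overlap.

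**Figure D3:**
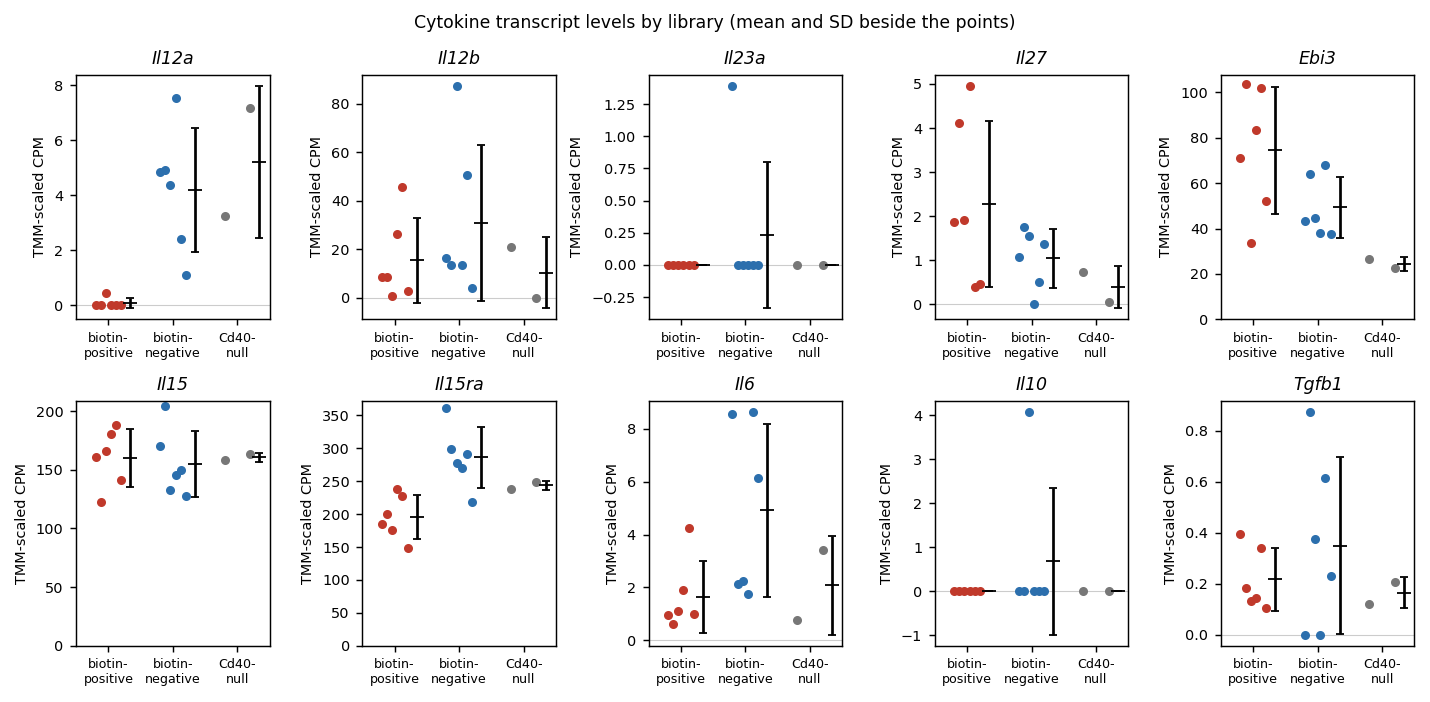
TMM-scaled CPM of the 10 genes in each of the 14 libraries, 1 point per library, with the group mean and SD (black) beside the points. Il12a is at or near 0 in the biotin-positive group, Il15ra is lower there with slight overlap, Ebi3 is lowest in the Cd40-null group, and Il23a and Il10 are each above 0 in 1 biotin-negative library.

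Il15 (chromosome 8, 82331632 to 82403222), which supports memory T cells and NK cells, was among the steadiest of the 10. It was at 123, 164 and 188 CPM in biotin-positive libraries, 128, 148 and 205 CPM in biotin-negative (lowest, median, highest), and 158 and 164 CPM in Cd40-null libraries. All groups overlapped, and the means, 160.1 ± 24.6, 155.0 ± 28.5 and 160.7 ± 3.86 CPM (SD, n = 6, 6 and 2), differed by less than the spread within the biotin groups. The difference between the biotin groups was log2 0.05 (SE 0.13, adjusted p = 0.903), with a 95% interval from 0.853-fold to 1.25-fold. Against the null group the interval for biotin-positive libraries was 0.760-fold to 1.31-fold, so larger changes of Il15 lie outside it.

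Il15ra (chromosome 2, 11705290 to 11734317), the chain that binds IL-15 and presents it to other cells, fell in biotin-positive libraries. Its lowest, median and highest level was 149, 193 and 238 CPM there and 218, 285 and 362 CPM in biotin-negative libraries, and the null libraries held 239 and 249 CPM. The biotin groups overlapped slightly: biotin-positive replicates 4 and 5, at 238 and 227 CPM, lay above biotin-negative replicate 6, at 218 CPM. The means were 196 ± 33.2 and 286 ± 46.5 CPM (SD, n = 6 each), 1.46-fold lower in biotin-positive libraries (log2 -0.55, SE 0.13, adjusted p = 0.0131). Against the null libraries, at 244 ± 7.19 CPM (SD, n = 2), no difference was called for biotin-positive (log2 -0.31, SE 0.18, adjusted p = 0.465) or the biotin-negative group (log2 0.23, SE 0.18, adjusted p = 0.731). The call between the biotin groups held without each of the 14 libraries in turn. It was lost when gene number (log2 -0.51, adjusted p = 0.570) or T cell marker level (log2 -0.39, adjusted p = 0.165) was added to the model. Gene number does not overlap between the biotin groups, and its model left 11 calls among all genes.

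Because Il15 was level and Il15ra was not, the balance of the pair shifted. The ratio of Il15 to Il15ra per kilobase does not depend on library scaling. It was 1.2, 1.67 and 1.87 (lowest, median, highest) in biotin-positive and 0.924, 1.03 and 1.35 in biotin-negative libraries, and 1.30 and 1.29 in the Cd40-null libraries. The biotin groups overlapped, through biotin-positive replicate 2 at 1.2 and biotin-negative replicate 2 at 1.35. This ratio was chosen after the values were seen and was not tested.

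**Figure D4:**
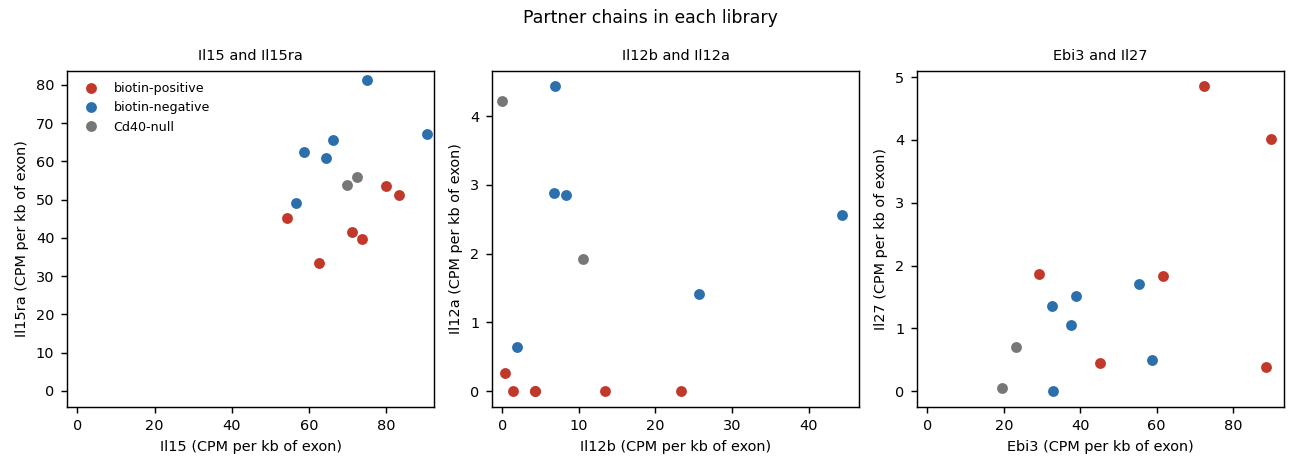
Levels of partner chains in each library, in CPM per kb of exon on linear axes: Il15 against Il15ra, Il12b against Il12a, and Ebi3 against Il27. Each point is 1 library, coloured by group; at like Il15 the biotin-positive libraries (red) sit lower in Il15ra than most others, and at any Il12b level they sit at or near 0 in Il12a.

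Il6 (chromosome 5, 30013114 to 30019981), which steers T cells toward T helper 17 and follicular helper fates, was low in all groups. It was at 0.613, 1.05 and 4.24 CPM in biotin-positive libraries and 1.74, 4.19 and 8.64 CPM in biotin-negative libraries, and at 0.765 and 3.41 CPM in Cd40-null ones. Biotin-negative replicates 1, 5 and 6 lay above all others, and the rest of that group overlapped biotin-positive replicates 4 and 5. The means of 1.64 ± 1.35 and 4.91 ± 3.27 CPM (SD, n = 6 each) gave log2 -1.58 (SE 0.69) at an adjusted p of 0.195 in edgeR, so the difference was not called, and its interval ran from -3.03 to -0.12. With gene number, which does not overlap between the biotin groups, in the model the sign of the Il6 difference turned (log2 0.48, adjusted p = 0.965).

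Il10 (chromosome 1, 131019845 to 131024974), the anti-inflammatory cytokine, had 87 counts (4.08 CPM) in biotin-negative replicate 3 and 0 in the other 13 libraries, which allows up to 0.0261 CPM over the biotin-positive group. Tgfb1 (chromosome 7, 25687002 to 25705077), whose product induces regulatory T cells, had 80 counts over all 14 libraries. It ran from 0.103 to 0.396 CPM in biotin-positive libraries and from 0 to 0.873 CPM in biotin-negative libraries and was at 0.121 and 0.207 CPM in the null libraries. The annotation behind the counts is not given in the sources used here, and whether reads of Tgfb1 were counted under another symbol was not tested, so its low level may not be its expression. At this depth no difference in Tgfb1 was detectable (biotin-positive against biotin-negative log2 -0.67, 95% interval -3.28 to 1.94).

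The receptors and mediators of these cytokines were followed in 5 lists, read against the 3.70% and 4.05% of all genes called higher and lower between the biotin groups. By non-overlap of these groups 2.60% of all genes lay higher and 2.41% lower. With gene number in the model 0 genes of the 5 lists were called between the biotin groups, and 11 of all genes. Of 13 receptor genes, all tested, 0 rose and 3 fell in biotin-positive against biotin-negative libraries. Il6ra, which binds IL-6, fell from 55.7 to 93.5 CPM in biotin-negative libraries to 5.26 to 35.4 CPM, without overlap (log2 -2.15, SE 0.33, adjusted p = 0.00051). Il2rg, the common gamma chain through which IL-15 signals, fell from 211 to 293 CPM to 125 to 221 CPM (log2 -0.73, SE 0.14, adjusted p = 0.00246). Tgfbr3, a co-receptor for TGF-beta, was also called, but had a summed count of 1 over the biotin-positive libraries. It passed the count filter through the groups in which it was present. Of its 227 biotin-negative counts 216 lay in replicate 1. The call was lost without that library (log2 -3.04, adjusted p = 0.280) and in 10 of the other 13 refits that leave out 1 library (adjusted p from 0.0515 to 0.0938). With gene number in the model the Tgfbr3 difference reversed (log2 3.50, adjusted p = 0.843). The list's median was -0.24, and 5 of the 13 had an unadjusted p under 0.05; DESeq2 called 1 receptor higher and limma voom 0.

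Of 13 genes of latent TGF-beta storage and release 10 were tested, 0 rose and 1 fell, with a median of -0.64 (2 at an unadjusted p under 0.05; DESeq2 and limma voom called 0 higher). Ltbp2, of the family of latent TGF-beta binding proteins, stood at 8.55, 11.6 and 22.2 CPM in biotin-positive libraries and 11.9, 36.2 and 46.5 CPM in the biotin-negative group (log2 -1.31, SE 0.33, adjusted p = 0.0217). The Cd40-null libraries, at 9.7 and 16.4 CPM, lay within the biotin-positive range (log2 0.06, adjusted p = 0.988 for biotin-positive against null). The Ltbp2 call between the biotin groups was lost without biotin-positive replicate 3 or 6 or biotin-negative replicate 3 (adjusted p = 0.0526, 0.0517 and 0.0538), and with T cell marker level in the model (log2 -1.05, adjusted p = 0.180). Tgfb2, a second TGF-beta isoform, was at log2 -0.59 (SE 0.49) and Ltbp1 at log2 3.24 (SE 1.40), neither of them called (adjusted p = 0.571 and 0.190).

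Of 15 JAK-STAT and SMAD genes, all tested, 0 rose and 1 fell between the biotin groups, at a median of -0.04. The gene called lower was Socs3, an inhibitor of signalling by IL-6 and its relatives. It was at 2.96 to 39.3 CPM in biotin-positive libraries and 39.5 to 154 CPM in biotin-negative libraries, without overlap (log2 -2.40, SE 0.52, adjusted p = 0.00849). The Cd40-null libraries, at 12.1 and 15.9 CPM, lay within the biotin-positive range. Socs3 was not called against them for biotin-positive (log2 0.21, adjusted p = 0.957) or biotin-negative libraries (log2 2.60, adjusted p = 0.308). Tyk2 (log2 0.31, SE 0.10, adjusted p = 0.0594), a kinase of the IL-12 receptor, and Stat3 (log2 0.19, SE 0.09, adjusted p = 0.246), which carries IL-6 and IL-10 signals, were not called. DESeq2 called Tyk2 higher (log2 0.31, adjusted p = 0.0333), and limma voom called 0 higher.

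Of 12 transcription factors tied to induction of Il12 and Il15, 10 were tested, and 3 rose and 1 fell between the biotin groups, with a median of -0.01. Irf8, a factor needed for Il12b transcription in macrophages and DCs, stood at 300, 461 and 549 CPM in biotin-positive libraries and 106, 202 and 242 CPM in the biotin-negative group (log2 1.2, SE 0.18, adjusted p = 0.000431). The Cd40-null libraries, at 331 and 336 CPM of Irf8, lay within the biotin-positive range and above the biotin-negative one. Between biotin-positive and null libraries Irf8 was not called (log2 0.39, adjusted p = 0.54). Irf5 (log2 0.79, SE 0.11, adjusted p = 0.000331) and Irf1 (log2 0.69, SE 0.12, adjusted p = 0.00141; outside the rule for named genes and chosen after its value was seen) rose too. Nfkbiz, a nuclear NF-kB cofactor of Il6 and Il12b induction, fell to 28.0 to 55.8 CPM from 74.6 to 150 CPM (log2 -1.57, SE 0.22, adjusted p = 0.000218). These 4 genes had no overlap between the biotin groups, where 2.60% of all genes lay higher and 2.41% lower without overlap. Factors of the list thus moved both ways in libraries in which Il12b was not called different.

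Of 19 other cytokines that act on T cells 12 were tested, and 0 rose and 3 fell in biotin-positive libraries, at a median of -0.16 (DESeq2 and limma voom called 0 higher). Il1b, the secreted form of IL-1 made through the inflammasome, was at 0, 4.70 and 12.9 CPM in biotin-positive libraries and 37.1, 88.5 and 225 CPM in the biotin-negative group (log2 -4.38, SE 0.83, adjusted p = 0.00429). Il18, which acts with IL-12 on interferon-gamma production, was at 4.10, 8.15 and 12.0 CPM and 13.0, 15.7 and 23.8 CPM (log2 -0.99, SE 0.27, adjusted p = 0.0338). Il1a had 10 counts in 1 biotin-positive library and counts in 5 of 6 biotin-negative libraries, up to 6.70 CPM (log2 -5.18, SE 1.52, adjusted p = 0.0464). Il1a passed the count filter through the groups in which it was present, and its size rests on those 10 counts. The Il18 call held in 6 and the Il1a call in 2 of the 14 refits that leave out 1 library, and both were lost with T cell marker level in the model (adjusted p = 0.171 and 0.0668).

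**Figure D5:**
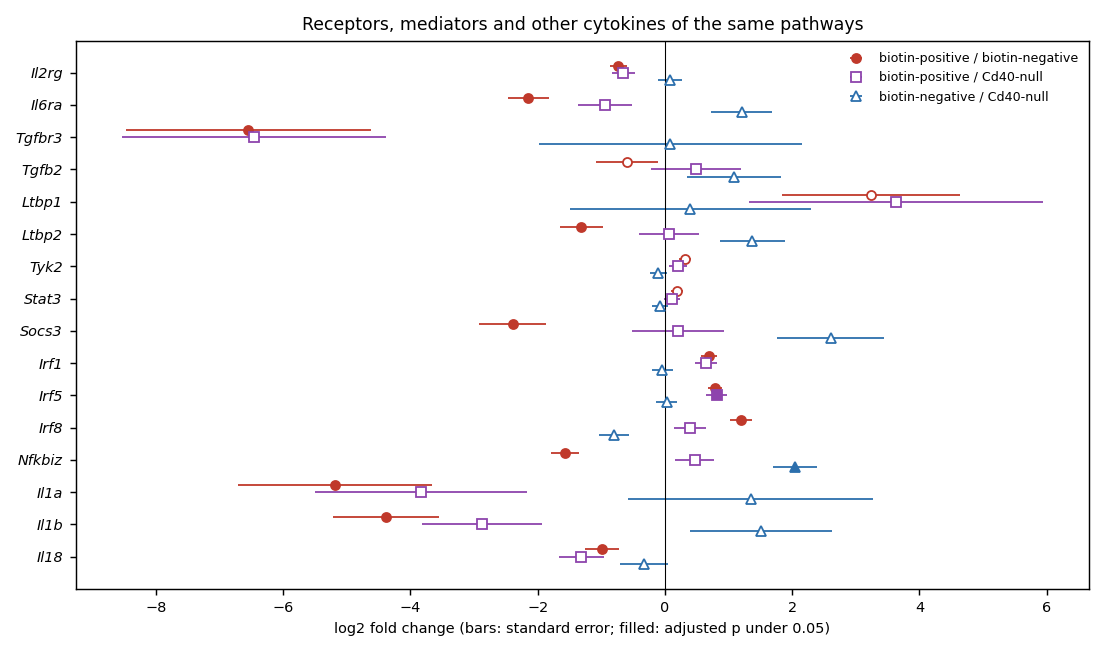
Log2 fold change (points) and standard error (bars) of the receptors, mediators, transcription factors and other cytokines named in the text, in the 3 comparisons (red circles, biotin-positive over biotin-negative; purple squares, biotin-positive over Cd40-null; blue triangles, biotin-negative over Cd40-null). Filled symbols passed an adjusted p under 0.05; most filled symbols are red circles left of 0, while Irf1, Irf5 and Irf8 lie right of it.

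Against the Cd40-null group calls are read beside the 2.27% of all genes called for biotin-positive and the 0.317% called for biotin-negative libraries. In biotin-positive libraries Irf5 was higher (396 to 542 against 256 and 309 CPM; log2 0.81, SE 0.17, adjusted p = 0.0169). In biotin-negative libraries Nfkbiz was higher than in the null libraries, which held 22.8 and 32.1 CPM (log2 2.04, SE 0.34, adjusted p = 0.0102). Both of these calls were lost without either null library (adjusted p from 0.0902 to 0.245). Of the 13 receptors edgeR called 0 between biotin-positive and null libraries (5 at an unadjusted p under 0.05; DESeq2 called 2 higher and 1 lower, limma voom 2 lower) and 0 between biotin-negative and null libraries (3 unadjusted; DESeq2 1 higher, limma voom 0). Of the 12 other cytokines edgeR called 0 and 0 (4 and 1 unadjusted; DESeq2 1 lower and 0, limma voom 1 lower and 0). Of 10 latent TGF-beta genes it called 0 and 0 (0 and 1 unadjusted; DESeq2 and limma voom 0), and of 15 JAK-STAT and SMAD genes 0 between biotin-negative and null libraries (2 unadjusted; DESeq2 1 higher and 1 lower, limma voom 1 lower).

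For the 3 most abundant of the 10 genes, the genes with the most similar pattern were listed by Pearson r of log2 CPM over the 14 libraries, among 8876 others with a mean of at least 5 CPM. For Il15ra these were Pbxip1 (r = 0.951), the phosphatase gene Ptpn1 (r = 0.933) and the chaperone gene Clu (r = 0.922). For Ebi3 they were the tetraspanin gene Cd82 (r = 0.859), the chemokine gene Ccl17 (r = 0.846) and the survival gene Bcl2l1 (r = 0.817). For Il15 they were Tmem208 (r = 0.873), the ubiquitin gene Ubb (r = 0.817) and Klf6 (r = 0.796). All points of a pair share their library, its depth and its group, so these values describe these libraries only.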

How the data were processed

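Libraries were 150 sorted DCs each, read as paired ends of 38 bp. Per the submitters' processing notes, Bowtie2 2.1.0, RSEM 1.2.8 and DESeq2 1.16.0 were used with mm10; the role of each and the annotation are not given in the sources used here. The authors deposited RSEM expected counts (whole numbers) for 23420 symbols and a normalized signal for 10321 genes, in which every value is its count over a library-wide factor. The members and lists were chosen with earlier results of these data known.

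Expected counts were rounded and tested in R 4.3.3 with edgeR 4.0.16: filterByExpr with min.count 10, TMM, 1 fit of all 14 libraries with a group factor (robust glmQLFit), two-sided glmQLFTest and Benjamini-Hochberg adjustment over 14217 genes, with calls at 0.05. Every adjusted p is from this test unless another tool is named. Standard errors are the absolute log2 fold change over the square root of F, and intervals are 95%. Log2 CPM used a prior count of 2. The pipeline was tested on simulated data. Exon lengths are the union of GENCODE M21 exons (GRCm38, the mm10 build). All 10 members were described; of each list up to 3 genes with the smallest p between the biotin groups were named. Limits for 0 counts use 3 counts and cover counting error only, since reads without molecular identifiers are not independent molecules. Alternatives were limma 3.58.1, DESeq2 1.42.0, other scalings and filters, covariates, a replicate block and each library left out; those for list genes were chosen after seeing the data. The result of 1 gene of the lists is not reported here.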

Additional observations from a re-analysis of the deposited data

Results flagged for a closer look

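Within the groups of 6 libraries, 4 values stood apart from the other 5 by Dixon's criterion, among 18 groups of values examined. Il6 was at 4.24 CPM in biotin-positive replicate 5, with the next at 1.91 CPM; chance gives such a gap in about 1 in 20 groups. The other 3 are the only value above 0 in their group, so the criterion is met by construction and that chance rate does not apply. Il12a was at 0.460 CPM in biotin-positive replicate 3, Il23a at 1.39 CPM in biotin-negative replicate 1 and Il10 at 4.08 CPM in biotin-negative replicate 3.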

How the results depend on the processing

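Of 607 values of single members under an alternative, 17 lost a call, 1 gained one and 21 changed sign, none of them a called value; the rest kept both. Between the biotin groups 2 members were called; the count was 1 with limma on the deposited normalized signal, which lists 6 of the 8 and not Il12a, 0 with gene number in the model, 0 with T cell marker level in it, and 2 to 3 with 1 library left out. Between biotin-positive and Cd40-null libraries 2 were called; it was 1 with limma voom, 1 with limma on the normalized signal (Il12a not tested there either), 0 with only the 2 groups compared, 1 with the replicate block, 1 with T cell marker level in the model, and 0 to 2 with 1 library left out. It was 0 between biotin-negative and Cd40-null libraries in every setting run. Same-numbered biotin libraries did not deviate together (correlations -0.0226 to 0.0132). This cannot tell whether they came from the same mouse, which the labels do not give, so pairing stays unknown. Under the replicate block 2, 1 and 0 members were called in the 3 comparisons, Il12a against Cd40-null being lost (adjusted p = 0.0655). Among list genes the block also lost Ltbp2 (adjusted p = 0.0790) and Tgfbr3 (0.245) between the biotin groups, Irf5 (0.0984) between biotin-positive and null, and Nfkbiz (0.119) between biotin-negative and null libraries. Log2 values that changed sign between the biotin groups were Il15 (-0.17), Il6 (0.48), Tgfbr3 (3.50) and Stat3 (-0.17) with gene number in the model, Tgfb1 (0.35) with limma voom, and Il15 (-0.0054 to 0.14) with 1 library left out. Between biotin-positive and Cd40-null libraries they were Il12b (-0.58) with T cell marker level in the model, Il15 with the stricter filter (0.0011) and the replicate block (0.066), and, with 1 library left out, Il12b (-0.43 to 11.29), Il15 (-0.058 to 0.060) and Il6 (-1.04 to 1.10). Between biotin-negative and Cd40-null libraries they were Il12a (0.88), Il15 (0.16) and Il6 (-0.96) with gene number, Il15ra (-0.031) with T cell marker level, Il15 (0.012) with the replicate block, Tgfb1 (-0.098) with limma voom, and Il12a (-0.77 to 0.36) with 1 library left out. The cause was not tested. Over all genes, 1102 calls between the biotin groups became 11 with gene number, 580 with T cell marker level and 1751 with DESeq2. For biotin-positive against Cd40-null, 174 higher and 149 lower calls became 75 and 54 under the replicate block, 567 and 316 with DESeq2, 261 and 345 with limma voom, and 40 and 38 or 48 and 47 without null replicate 1 or 2. For biotin-negative against Cd40-null, 45 calls became 19 under the replicate block, 29 with only the 2 groups, 6 with gene number, 13 with T cell marker level, 359 with DESeq2, 81 with limma on the normalized signal, and 21 or 12 without null replicate 1 or 2. Without a filter on low counts the median log2 of all genes moved to -0.21 between the biotin groups and 0.29 between biotin-negative and Cd40-null libraries. Depth limits Il23a, Il10, Tgfb1 and, in biotin-positive libraries, Il12a, which rest on few counts.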
